A study of Mus musculus with 4 samples.

Results

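Pericytes and vascular smooth muscle cells of the adult mouse sciatic nerve were described from Drop-seq libraries of nerve 3 days post-injury (DPI) and of uninjured nerve. Drop-seq captures single cells with barcoded beads in droplets, and each captured mRNA is counted once through its unique molecular identifier (UMI). The cells were selected on their counts: a barcode was a member when its UMIs of Rgs5, Kcnj8, Abcc9, Notch3, Higd1b, Myh11 and Cnn1 summed to at least 4 and when it had 0 UMIs of Pecam1 (endothelial), Pdgfra (mesenchymal), Sox10 (Schwann) and Ptprc (immune). Barcodes needed at least 200 genes and at most 10% mitochondrial UMIs. This gave 83 members among 2281 filtered barcodes at 3 DPI and 175 among 1945 in the uninjured nerve, 258 of the 4226 filtered adult barcodes and of the 12268 in all 4 libraries of the series.

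Both libraries came from wild-type CD1 mice labelled adult. For the 3 DPI library the sciatic nerve was resected on 1 side under isoflurane, with ketoprofen or meloxicam and buprenorphine given, and the segment distal to the gap was taken. For the uninjured library, nerves were taken from both sides. Both preparations were dissociated with collagenase and trypsin and cleared with myelin removal beads, and no source used here says how many animals went into each. With 1 library per condition no test between conditions was possible. Every ratio below compares 1 library with another, and its 95% interval covers counting error only.

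Pericytes and vascular smooth muscle cells are together called mural cells because they wrap the endothelial tube. Smooth muscle cells of arterioles carry an actin and myosin apparatus that sets vessel calibre, whereas pericytes lie in the basement membrane of capillaries and venules, share that membrane with the endothelium and stabilise it through signals such as PDGF-B and Notch3. In peripheral nerve these vessels feed the endoneurium and contribute to the blood-nerve barrier.

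The 3 DPI members held 262737 UMIs and the uninjured members 268303. Median depth was 2520 UMIs per member (259 to 14091) and 1372 genes at 3 DPI, against 1271 UMIs (439 to 6226) and 764 genes in the uninjured nerve. The 3 DPI members were thus deeper, so levels are given as CPM, the UMIs of a gene summed over members and scaled to a common total. Shares of members with a UMI are also given after members were thinned to 500 UMIs. Thinning left out the members with fewer UMIs, 3 at 3 DPI and 6 in the uninjured nerve. The median mitochondrial share was 1.28% of UMIs at 3 DPI and 2.49% in the uninjured nerve. No barcode sequence was shared between the adult libraries. Of the barcodes that reached the marker sum, 48 of 131 at 3 DPI and 53 of 228 in the uninjured nerve were removed for a UMI of Pecam1 (34 and 43), Pdgfra (23 and 10), Sox10 (7 and 7) or Ptprc (4 and 1), some for more than 1 of these genes. Doublets were not removed by a caller; the 5% of barcodes with the highest scrublet score in each library held 6 of the 83 and 8 of the 175 members.

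Mural barcodes made up 3.64% of filtered barcodes at 3 DPI (exact Clopper-Pearson 95% interval 2.91 to 4.49) and 9.0% in the uninjured nerve (7.76 to 10.4). These are shares of recovered barcodes, so fewer mural cells and more of the other cells cannot be told apart. The same rule gave 132 of 2306 barcodes (5.72%) in the sorted neonatal library, from postnatal days 3 to 4. In the bead-cleared neonatal library, from postnatal days 2 to 3, it gave 337 of 5736 (5.88%). Just inside the threshold, at 4 marker UMIs, there were 4 members at 3 DPI, with a median of 1.08% contractile UMIs (defined below), and 13 in the uninjured nerve, with 1.37%. Just outside it, at 3 marker UMIs, lay 8 barcodes at 3 DPI (0.0874%) and 4 in the uninjured nerve (0.397%).

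The genes of the rule chose the members, so their values are a description without any test. Rgs5, a regulator of G protein signalling that is the usual pericyte marker, stood at 11540 CPM at 3 DPI and 3757 CPM in the uninjured nerve, and was found in 88.0% and 61.7% of members. Endothelial comparison barcodes were those with a Pecam1 UMI, none of the other 3 excluding genes and under 4 marker UMIs. They had an Rgs5 UMI in 8.38% at 3 DPI (median 2468 UMIs) and 9.94% in the uninjured nerve (2018 UMIs). The limit on marker UMIs caps Rgs5 in them, so these shares give no background level for it. Myh11, the smooth muscle myosin heavy chain, went the other way: 1507 CPM and 67.5% of members at 3 DPI against 4972 CPM and 78.9% in the uninjured nerve. Rgs5 thus led the marker sum after injury and Myh11 led it before. No 3 DPI member but 17 uninjured members were selected on Myh11 alone, 6 and 1 on Rgs5 alone, and 48 and 74 had both.

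Of the other rule genes, Higd1b, a mitochondrial gene typical of capillary pericytes, was at 384 CPM (48.2% of members) at 3 DPI and 205 CPM (17.1%) in the uninjured nerve. Notch3, the mural Notch receptor, was at 601 and 555 CPM, in 65.1% and 50.9% of members. The channel subunits Kcnj8 and Abcc9, which form the vascular ATP-sensitive potassium channel, were at 198 and 220 CPM and at 304 and 216 CPM. Cnn1, the smooth muscle calponin, was at 179 and 287 CPM. The intervals of the ratios for Notch3 (0.860 to 1.36), Kcnj8 (0.608 to 1.33) and Abcc9 (0.992 to 2.01) all included 1.

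Genes that the rule did not use marked the same barcodes in both conditions. Acta2, smooth muscle alpha-actin, was found in 90.4% of members at 3 DPI and 88.6% in the uninjured nerve, against 13.1% and 26.1% of the endothelial barcodes. Des (desmin) was found in 59.0% and 53.1% of members and in 2.62% and 1.55% of the endothelial barcodes. Pdgfrb, the PDGF-B receptor, was found in 59.0% and 35.4% of members but also in 26.5% and 15.1% of the Pdgfra-positive barcodes. Cspg4 did not set members apart: 26.5% and 12.0% of members had a UMI, and so did 23.7% and 18.3% of the Pdgfra-positive barcodes. The label of mural cells therefore rested on contractile and pericyte genes together.

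**Figure D1:**
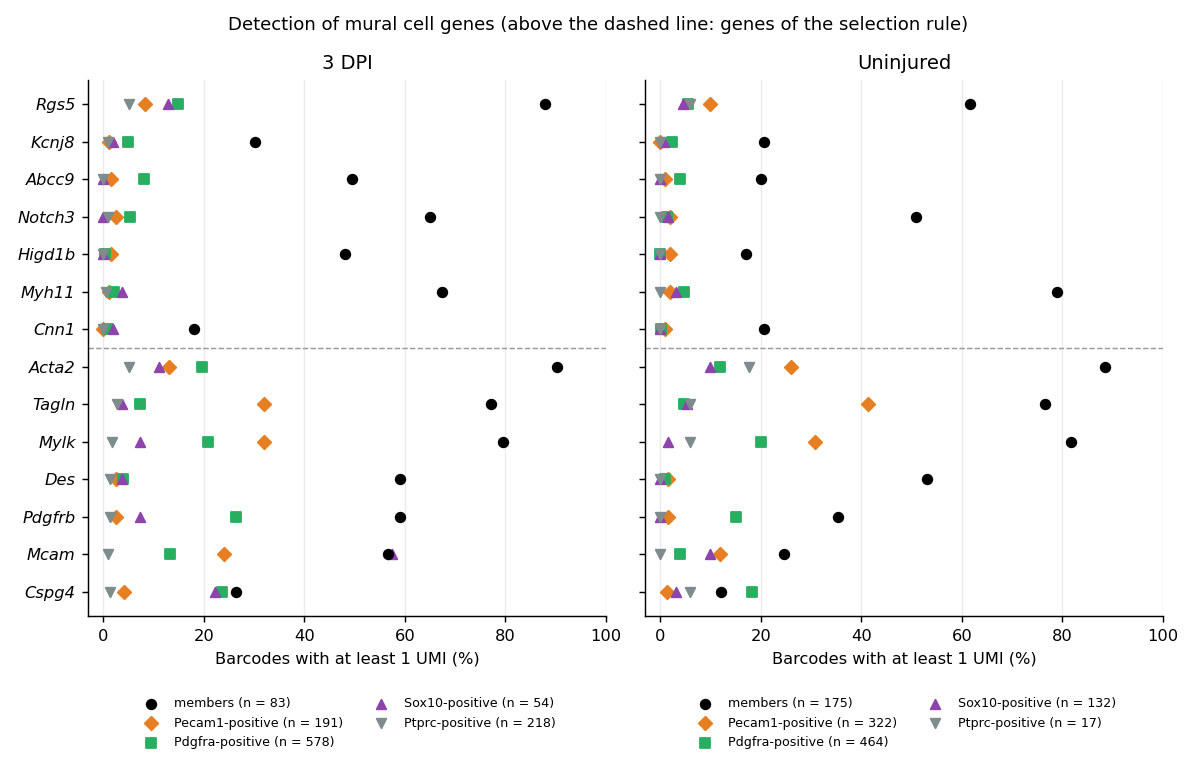
The horizontal axis gives the percentage of barcodes with at least 1 UMI of each gene on the vertical axis, for members and for the 4 sets of comparison barcodes, at 3 DPI (left) and in the uninjured nerve (right). Members lie to the right of the comparison sets for the contractile genes (Acta2 90.4% and 88.6%), but for Cspg4 they lie among them (26.5% and 12.0%).

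Among the 20 genes outside the rule with the highest member over other-barcode ratio in both libraries, besides contractile genes, were Olfr558 and Olfr78, odorant receptors known from vascular smooth muscle, and Cox4i2, a cytochrome oxidase subunit of pericytes. Their CPM in members was 77.3, 27.3 and 43.6 times that in the other filtered barcodes at 3 DPI. In the uninjured nerve it was 61.0, 32.6 and 25.6 times that. Nrip2, a nuclear receptor interacting protein, was as specific (26.1 and 69.1 times) and fell among the lower genes at 3 DPI, with 91.3 CPM against 548 CPM (0.167-fold, 0.103 to 0.258).

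Markers of other cells were present at low level. UMIs of the 14 mesenchymal markers made up 0.390% of the members' UMIs at 3 DPI and 0.685% in the uninjured nerve, where 2 and 1 of the 14 were at 0. They had a median of 0.109% per member (0 to 5.31%) at 3 DPI and 0.203% (0 to 8.29%) in the uninjured nerve. Dcn, the most abundant, was found in 49.4% and 63.4% of members, in 61.8% and 77.3% of endothelial and in 45.9% and 70.6% of immune comparison barcodes. In 4 members at 3 DPI and 7 in the uninjured nerve these markers reached 1% of UMIs, and those barcodes carried 438 of 539 and 671 of 849 Dcn UMIs. Without them, 12 of the genes given below with a ratio between conditions had one that differed by more than 1.5 times, which is given beside each. The 12 endothelial markers took 0.0514% and 0.0455% of UMIs with none at 0, and Cdh5 and Cldn5 were found in 6.02% and 1.21% of 3 DPI members and in 3.43% and 2.29% of uninjured members. The 12 Schwann markers took 0.0316% and 0.0570%, with 8 and 0 of the 12 at 0. The 17 immune markers took 0.0286% and 0.00224%, with 5 and 13 at 0. Among them Lyz2 had 39 UMIs in 33.7% of 3 DPI members and 0 UMIs in the uninjured members, and was found in 26.2% of 3 DPI endothelial barcodes. The 5 red cell genes took 0.0286% and 0.0760% with 2 of 5 at 0 in both, and the 6 skeletal muscle genes 0.00495% and 0.00149%, with 2 and 4 at 0. The part of these RNAs in the results below was not tested.

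Across members, 4769 genes had at least 20 UMIs over both libraries and were compared. Of these, 650 (13.6%) were at least 2-fold higher at 3 DPI and 476 (9.98%) at least 2-fold lower, as a description of size and not a test. The median log2 ratio over all genes compared was 0.07. After thinning, 1199 genes reached 20 UMIs, with 156 higher and 185 lower. Gene lists below are read against these shares, and each list's median includes genes at 0 in a library, which were set to a floor of 3 UMIs summed over its members. All other filtered barcodes, given beside the members, pool cell types in a mix that differed between libraries. Pecam1-positive comparison barcodes numbered 191 at 3 DPI and 322 in the uninjured nerve, Pdgfra-positive 578 and 464, Sox10-positive 54 and 132 and Ptprc-positive 218 and 17. In that pool a different mix and a different level within a cell type cannot be told apart.

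Contractile genes took a smaller part of the members' UMIs at 3 DPI. UMIs of the 20 contractile genes took 3.79% of the members' UMIs at 3 DPI and 5.50% in the uninjured nerve, and per member the median was 2.98% (0.0466 to 13) and 4.44% (0.145 to 12.7). All 20 were compared: 1 was at least 2-fold higher, against 13.6% of all genes, and 3 at least 2-fold lower, against 9.98%, with a median ratio of 0.704-fold. The same 20 genes had 3 higher and 6 lower in all other filtered barcodes, with a median of 0.745-fold. Among members, a different mix of smooth muscle cells and pericytes and a different level within each cannot be told apart.

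Acta2 stood at 6935 CPM at 3 DPI and 11681 CPM in the uninjured nerve, a ratio of 0.594 (0.560 to 0.629). Tagln, or transgelin, an actin-binding protein, was at 2912 and 5691 CPM (0.512-fold, 0.468 to 0.558). Myl9, the regulatory myosin light chain, was at 3498 and 6612 CPM (0.529-fold, 0.488 to 0.573). These 3 were detected in 77.1% to 90.4% of members at 3 DPI and 76.6% to 88.6% in the uninjured nerve. After thinning to 500 UMIs they were detected in fewer members at 3 DPI, Acta2 in 77.5% and 84.0%, Myl9 in 62.5% and 79.9% and Tagln in 50% and 68.0%. Tpm2, beta-tropomyosin, was at 3079 and 5990 CPM (0.514-fold, 0.472 to 0.560), whereas Tpm1, alpha-tropomyosin, was at 6200 and 6545 CPM with an interval that included 1 (0.885 to 1.01). Cald1, caldesmon, was at 5344 and 4704 CPM (1.14-fold, 1.05 to 1.23).

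The 3 contractile genes at least 2-fold lower were Pln, Myl6 and Lmod1. Pln encodes phospholamban, the brake on the calcium pump of the sarcoplasmic reticulum, and was at 99.0 CPM at 3 DPI and 395 CPM in the uninjured nerve (0.251-fold, 0.157 to 0.388); 46.2% of its 3 DPI UMIs came from 1 barcode. Myl6, the essential myosin light chain, was at 959 and 2475 CPM (0.388-fold, 0.334 to 0.449). Lmod1, leiomodin, which nucleates actin filaments in smooth muscle, was at 750 and 1852 CPM (0.405-fold, 0.341 to 0.478). Actg2, enteric smooth muscle gamma-actin, was the exception: 369 CPM in 32.5% of members at 3 DPI against 70.8 CPM in 5.71% (5.21-fold, 3.17 to 9.03). Among members of low contractile content it had 5 UMIs at 3 DPI and 0 in the uninjured nerve. Its ratio there, at least 0.861-fold, was set by the floor and gives no direction.

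To show where these proteins' genes share a regulatory element, the RefSeq promoter windows of the list were searched on both strands for the CArG box, the site bound by serum response factor, in the 250 bases before and 50 after each start. Of the 20 list genes plus Myh11 and Cnn1, 19 were in the table, and 4 held a CArG box, against 1.81% of all 27025 genes (1.63% of all 32851 windows). Tagln, Actg2 and Myh11 have no entry there. The 180 bases before the start are shown for the 4 genes, each on its gene's strand, with the box in capitals, because they include members of the list with low ratios and with ratios near 1.

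Myl9, GRCm38.p6 chr2:156775284-156775463, plus strand:
Myl9: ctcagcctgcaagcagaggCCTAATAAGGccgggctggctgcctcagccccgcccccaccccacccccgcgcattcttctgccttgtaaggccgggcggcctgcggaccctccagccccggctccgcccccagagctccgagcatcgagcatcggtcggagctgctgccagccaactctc
Myl6, chr10:128493010-128493189, minus strand:
Myl6: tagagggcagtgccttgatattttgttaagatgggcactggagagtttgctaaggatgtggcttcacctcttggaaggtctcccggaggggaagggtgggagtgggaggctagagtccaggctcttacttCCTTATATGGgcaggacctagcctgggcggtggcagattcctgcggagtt
Filip1l, chr16:57549062-57549241, plus strand:
Filip1l: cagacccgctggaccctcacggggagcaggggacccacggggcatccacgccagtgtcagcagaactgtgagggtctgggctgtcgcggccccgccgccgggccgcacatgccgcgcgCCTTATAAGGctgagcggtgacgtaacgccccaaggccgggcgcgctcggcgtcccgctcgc
Cnn2, chr10:79988420-79988599, plus strand:
Cnn2: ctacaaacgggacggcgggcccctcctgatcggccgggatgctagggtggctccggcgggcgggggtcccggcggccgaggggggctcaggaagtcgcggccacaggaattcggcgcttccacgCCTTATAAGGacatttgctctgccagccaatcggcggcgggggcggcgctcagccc

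The box began 161 bases before the start of Myl9, 50 before that of Myl6, 62 before that of Filip1l and 56 before that of Cnn2. The ratios of the 4 genes ran from 0.388 to 0.977, with Myl6 at 0.388 and Myl9 at 0.529, Filip1l (filamin A interacting protein) at 0.852 (0.762 to 0.952; 2223 and 2609 CPM) and Cnn2 (calponin 2) at 0.977 (0.777 to 1.23; 582 and 596 CPM). A matching sequence is no evidence of binding.

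Members differed among themselves in contractile content. UMIs of Acta2, Tagln, Myl9, Tpm2 and Mylk took a median of 1.10% of a member's UMIs at 3 DPI (0 to 8.96%) and 2.27% in the uninjured nerve (0 to 8.79%). With a cut at 1%, which divides a continuous range and not 2 cell types, 45 of 83 members at 3 DPI (54.2%, 42.9 to 65.2) and 132 of 175 uninjured members (75.4%, 68.4 to 81.6) lay in the high range. Many lay near the cut: 45 at 3 DPI and 59 in the uninjured nerve were between 0.5% and 2%. The share was lower at 3 DPI with the cut at 0.5% or at 2% as well.

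In the uninjured nerve Rgs5 was at 3010 CPM in high-range and 6652 CPM in low-range members. At 3 DPI it was at 11833 and 11111 CPM, so there the ranges hardly differed in Rgs5. Members with 0 Rgs5 UMIs numbered 10 at 3 DPI and 67 in the uninjured nerve. Their median contractile share was 5.15% and 4.39%, against 1.06% and 1.45% in members with Rgs5. Myh11 was at 4084 and 7583 CPM in the members without Rgs5, and at 1056 and 2408 CPM in those with it. Higd1b showed the reverse, with 102 and 45.1 CPM without Rgs5 and 434 and 362 CPM with it. Rgs5, Myh11 and Higd1b belong to the rule, and members with 0 Rgs5 UMIs could enter only through its other genes. The contrast is therefore a description of the barcodes the rule took.

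**Figure D2:**
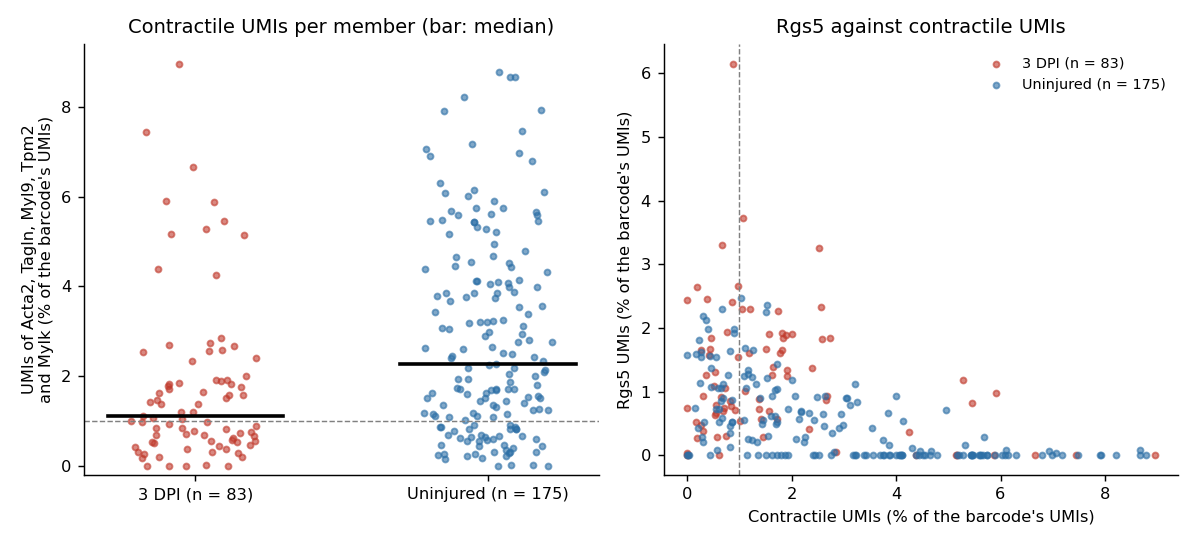
Left, each point is a member and the vertical axis is its UMIs of Acta2, Tagln, Myl9, Tpm2 and Mylk as a percentage of all its UMIs, with bars at the medians (1.10% at 3 DPI, 2.27% uninjured) and a dashed line at the 1% cut. Right, the same percentage on the horizontal axis is set against the percentage of Rgs5 UMIs on the vertical axis, and most barcodes above 4% contractile UMIs have 0 Rgs5 UMIs.

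The ranges were set by UMIs of these genes, so their values within a range are a description. Acta2 was 0.735-fold among high-range members and 1.42-fold among low-range members, and the list's median was 0.771-fold and 1.13-fold.

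Genes outside the contractile list also differed along this range. Higher in the high range in both libraries were Ramp1, a subunit of the CGRP receptor, with 34 of 39 UMIs at 3 DPI and 63 of 65 in the uninjured nerve in high-range members, and Olfr558, with 62 of 71 and 163 of 165. Lower in it by CPM were fibroblast genes such as Igfbp6 (0.0350 and 0.0780 times) and Sfrp4 (0.0330 and 0.0354 times). For Sfrp4, 53.9% and 69.0% of the members' UMIs came from 1 barcode in each library, so these low-range values rest on few mesenchymal-rich barcodes.

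Of the 30 pericyte and mural identity genes outside the rule, 26 were compared, and 4 were at least 2-fold higher and 5 at least 2-fold lower, with a median of 1.02-fold. The list as a whole did not move to 1 side. Pdgfrb was at 560 CPM at 3 DPI and 309 CPM in the uninjured nerve (1.81-fold, 1.37 to 2.4). Mcam, the adhesion molecule CD146, was at 476 and 246 CPM (1.93-fold, 1.42 to 2.65), and Cspg4, the NG2 proteoglycan, at 183 and 123 CPM (1.49-fold, 0.934 to 2.39). Cd248, endosialin, a stromal glycoprotein of activated pericytes and fibroblasts, had the highest ratio: 365 CPM in 42.2% of members at 3 DPI against 44.7 CPM in 5.71% (8.17-fold, 4.47 to 16.4). In all other filtered barcodes Cd248 was 1.51-fold, and without the members rich in mesenchymal markers its ratio in members was 9.04, but 3.64 among members that also had 0 UMIs of Cdh5, Lum, Cdh19 and Lyz2. The Pdgfra-positive barcodes had it at 358 and 338 CPM.

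Lower identity genes included regulators of mural tone and fate. Foxc1, a forkhead factor of mural and meningeal precursors, was at 26.6 and 171 CPM (0.155-fold, 0.0592 to 0.346). Vtn, vitronectin, which pericytes secrete, was at 87.5 and 298 CPM (0.294-fold, 0.176 to 0.472). S1pr3, a sphingosine 1-phosphate receptor, was at 83.7 and 276 CPM (0.304-fold, 0.180 to 0.494), and Rgs4, a G protein regulator, at 369 and 1018 CPM (0.363-fold, 0.285 to 0.459). Among members that also had 0 UMIs of Cdh5, Lum, Cdh19 and Lyz2, S1pr3 was 0.604-fold (0.284 to 1.17) and Rgs4 0.613-fold (0.428 to 0.859). Epas1, the hypoxia-inducible factor HIF-2 alpha, was at 426 and 298 CPM (1.43-fold, 1.06 to 1.93), and Cox4i2 at 152 and 142 CPM with an interval that included 1.

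Of 16 Notch pathway genes beside Notch3, 6 reached 20 UMIs, and of these 0 were at least 2-fold higher and 2, Hes1 and Nrarp, at least 2-fold lower, with a median of 0.659-fold. The same 6 genes had 0 higher and 3 lower in all other filtered barcodes (median 0.533-fold). Hes1, a transcriptional repressor induced by Notch, was at 202 CPM in 28.9% of members at 3 DPI and 1934 CPM in 57.1% of uninjured members (0.104-fold, 0.0771 to 0.139). After thinning, 12.5% and 42.6% of members had it. Nrarp, a feedback inhibitor of the pathway, was at 41.9 and 257 CPM (0.163-fold, 0.0777 to 0.310). Jag1, a ligand, was at 186 and 190 CPM (0.981-fold, 0.649 to 1.48), and Notch1 and Hey2 had intervals from 0.420 to 2.48 and from 0.329 to 2.15. Heyl, a Notch3 target in mural cells, was at 53.3 and 104 CPM with an interval that reached 1 (0.511-fold, 0.248 to 1.0). Hes1 was 0.110-fold in the high and 0.219-fold in the low contractile range. Hes1 was also low outside the members, at 0.290-fold in all other filtered barcodes, 0.221-fold in endothelial and 0.180-fold in Sox10-positive barcodes.

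In the vasoactive list, 20 of 41 genes were compared, with a median of 0.700-fold. Of these, 2 were higher, against 13.6% of all genes, and 6 lower, against 9.98%. In all other filtered barcodes 18 of them were compared, with 0 higher and 4 lower (median 0.736-fold). The pair that was higher were Ednrb and Trpc6. Ednrb, the endothelin B receptor, was at 381 CPM in 34.9% of members at 3 DPI against 55.9 CPM in 4.0% (6.81-fold, 3.94 to 12.6). After thinning the shares were 17.5% and 2.37%. Ednra, the endothelin A receptor that drives constriction, was at 186 and 224 CPM (0.834-fold, 0.560 to 1.24). Trpc6, a receptor-operated calcium channel, was at 91.3 and 22.4 CPM (4.08-fold, 1.63 to 12.2), but did not pass 2-fold among low-range members. In all other filtered barcodes, pooled over cell types, Ednrb was 0.572-fold and Trpc6 0.377-fold. Ednrb was at 121 and 101 CPM in endothelial, 4.12 and 2.43 CPM in Pdgfra-positive and 225 and 446 CPM in Sox10-positive barcodes. Of these sets it was lower at 3 DPI only in the Sox10-positive barcodes. Ednrb was 10.7-fold in the high and 3.15-fold in the low contractile range.

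The 6 lower genes were Adra2a, Gucy1a3, Itpr1, Pde3a, Ppp1r12a and Rgs2. Gucy1a3, a subunit of the nitric oxide receptor guanylate cyclase, was at 499 and 1111 CPM (0.449-fold, 0.363 to 0.553), and its partner Gucy1b3 at 400 and 608 CPM (0.658-fold, 0.510 to 0.846). Ppp1r12a, the targeting subunit of myosin phosphatase, was at 453 and 1129 CPM (0.401-fold, 0.322 to 0.497). Its inhibitor Ppp1r14a was at 430 and 615 CPM (0.699-fold, 0.546 to 0.894). Itpr1, the inositol trisphosphate receptor, was at 34.2 and 142 CPM (0.242-fold, 0.103 to 0.509), and Adra2a, an alpha-2 adrenoceptor, at 79.9 and 171 CPM (0.466-fold, 0.264 to 0.797). Gucy1b3 and Ppp1r14a were not 2-fold lower. Among members that also had 0 UMIs of Cdh5, Lum, Cdh19 and Lyz2, Gucy1a3 was 0.625-fold, Adra2a 0.788-fold and Ppp1r14a 1.15-fold (0.778 to 1.67).

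Basement membrane genes were higher at 3 DPI. Of the 16 compared, 7 were at least 2-fold higher, against 13.6% of all genes, and 0 at least 2-fold lower, with a median of 1.90-fold. The same 16 genes had 1 higher and 2 lower in all other filtered barcodes, with a median of 0.786-fold. The list took a median of 2.28% of a member's UMIs at 3 DPI (0.289 to 7.41) and 1.5% in the uninjured nerve (0.198 to 3.35), and 71 of the 83 3 DPI members (85.5%) were above the uninjured median, so the groups overlapped but were shifted.

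Col18a1 had the highest ratio in the list, followed by Lamb1. Col4a1, a chain of collagen IV, the network-forming collagen of basement membranes, was at 1907 CPM in 83.1% of members at 3 DPI and 563 CPM in 49.7% in the uninjured nerve (3.39-fold, 2.82 to 4.09). Col4a2 was at 1416 and 358 CPM (3.96-fold, 3.15 to 5.01), and after thinning both were found in 48.8% of 3 DPI members, against 22.5% and 18.3% of uninjured members. Endothelial barcodes held Col4a1 at 1156 and 354.5 CPM, so the higher level was not confined to mural barcodes. Col18a1, the collagen from which endostatin is cut, was at 643 and 93.2 CPM (6.90-fold, 4.52 to 11). Nid1, nidogen, which links laminin to collagen IV, was at 438 and 108 CPM (4.05-fold, 2.67 to 6.31). Each of these 4 was above 2-fold in both contractile ranges.

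Laminin chains did not move together. Lamb1 was at 228 and 41.0 CPM (5.57-fold, 2.90 to 11.8; 13.2-fold, 4.86 to 50.3, without the mesenchymal-rich members) and Lama4, the vascular alpha chain, at 209 and 104 CPM (2.01-fold, 1.25 to 3.28). Lamb2, the beta chain of mature membranes, was lower, at 179 and 294 CPM (0.608-fold, 0.414 to 0.883). Sparc, a collagen-binding matricellular protein, was at 10866 CPM at 3 DPI and 5803 CPM in the uninjured nerve (1.87-fold, 1.76 to 1.99), whereas its relative Sparcl1 was at 4255 and 7551 CPM (0.564-fold, 0.523 to 0.607), but 1.06-fold (0.951 to 1.17) among members with 0 UMIs of Cdh5, Lum, Cdh19 and Lyz2. Bgn, biglycan, was at 1229 and 466 CPM (2.64-fold, 2.14 to 3.27).

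Of the 32 genes compared in the list of fibrillar collagen and wound matrix, 20 were at least 2-fold higher and 1 at least 2-fold lower, with a median of 2.50-fold. For these 32 genes the median was 1.305-fold in the low and 3.51-fold in the high contractile range. With genes selected anew in each setting it was 1.58-fold and 3.83-fold, and 4.44-fold without the deepest 5 and 9 members. In all other filtered barcodes 13 were higher and 0 lower (median 1.60-fold). Per member the list took a median of 1.90% of UMIs at 3 DPI (0.103 to 7.87) and 0.862% in the uninjured nerve (0.0930 to 8.58). Col6a3, a collagen VI chain, was at 830 CPM in 73.5% of members at 3 DPI against 74.5 CPM in 9.71% (11.1-fold, 7.03 to 18.6), with 214 and 28.2 CPM in endothelial barcodes. Col5a2 was at 655 and 134 CPM (4.88-fold, 3.39 to 7.20). Loxl2, a collagen cross-linking oxidase, was at 594 and 93.2 CPM (6.37-fold, 4.16 to 10.2; 10-fold without the mesenchymal-rich members), and Fbn1, fibrillin-1, at 495 and 78.3 CPM (6.32-fold, 3.97 to 10.6). Postn, periostin, was at 742 and 153 CPM (4.86-fold, 3.45 to 6.98), but endothelial barcodes had it at 714 and 33.5 CPM.

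The abundant fibrillar chains need the levels of other cells beside them. Col1a1 was at 1987 and 898 CPM in members (2.21-fold, 1.90 to 2.59), and at 1989 and 415 CPM in endothelial and 1577 and 121 CPM in immune comparison barcodes. Col3a1 was at 5119 and 2307 CPM (2.22-fold, 2.02 to 2.44), against 2068 and 848 CPM and 1720 and 443 CPM there. In uninjured members 51.5% of Col1a1 UMIs came from 1 barcode. Without the 4 and 7 members rich in mesenchymal markers Col1a1 was 4.28-fold and Col3a1 3.29-fold, and among low-range members Col1a1 was 0.933-fold. Fn1, fibronectin, was at 849 and 179 CPM (4.74-fold, 3.46 to 6.62), but 944 and 209 CPM in endothelial barcodes, and 13.1-fold without the mesenchymal-rich members.

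Tnc, tenascin-C, and Timp1, an inhibitor of metalloproteinases, were 8.51-fold (3.65 to 24.3) and 14-fold (5.18 to 53.4) in members, at 190 and 209 CPM at 3 DPI. Without the mesenchymal-rich members Timp1 had 46 UMIs and 1 UMI (46.7-fold, 7.98 to 1886). Their levels in 3 DPI endothelial barcodes were 238 and 231 CPM, no lower than in members. Lox was at 415 and 59.6 CPM (6.96-fold, 4.10 to 12.6), with 65.1% of its 3 DPI UMIs in 1 barcode. It was 2.82-fold (1.27 to 6.87) without the mesenchymal-rich members and 1.80-fold (0.688 to 4.47) among members that also had 0 UMIs of Cdh5, Lum, Cdh19 and Lyz2. Col12a1 was at 156 CPM at 3 DPI and had 0 UMIs in uninjured members, at least 14-fold higher, with 51.2% of its UMIs in 1 barcode, and at least 6.10-fold higher without the mesenchymal-rich members. The 1 lower gene was Cyr61, a matricellular early response gene, at 609 and 2035 CPM (0.299-fold, 0.249 to 0.357). Timp3, another metalloproteinase inhibitor, was at 1180 and 2173 CPM (0.543-fold, 0.472 to 0.624).

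Proteases went both ways, with 5 higher and 4 lower of 14. Mmp14, the membrane metalloproteinase that degrades collagen around cells, was at 422 and 123 CPM (3.44-fold, 2.31 to 5.23). Adamts2, which trims procollagen, was at 274 and 78.3 CPM (3.50-fold, 2.13 to 6.0), and Plat, tissue plasminogen activator, at 137 and 26.1 CPM (5.25-fold, 2.31 to 14). Without the mesenchymal-rich members Adamts2 was 8.71-fold (3.98 to 22.6), and Plat, with 22 UMIs and 1 UMI, 22.4-fold (3.61 to 923). Adamts1, an early response protease, was at 438 and 2065 CPM (0.212-fold, 0.172 to 0.260).

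**Figure D3:**
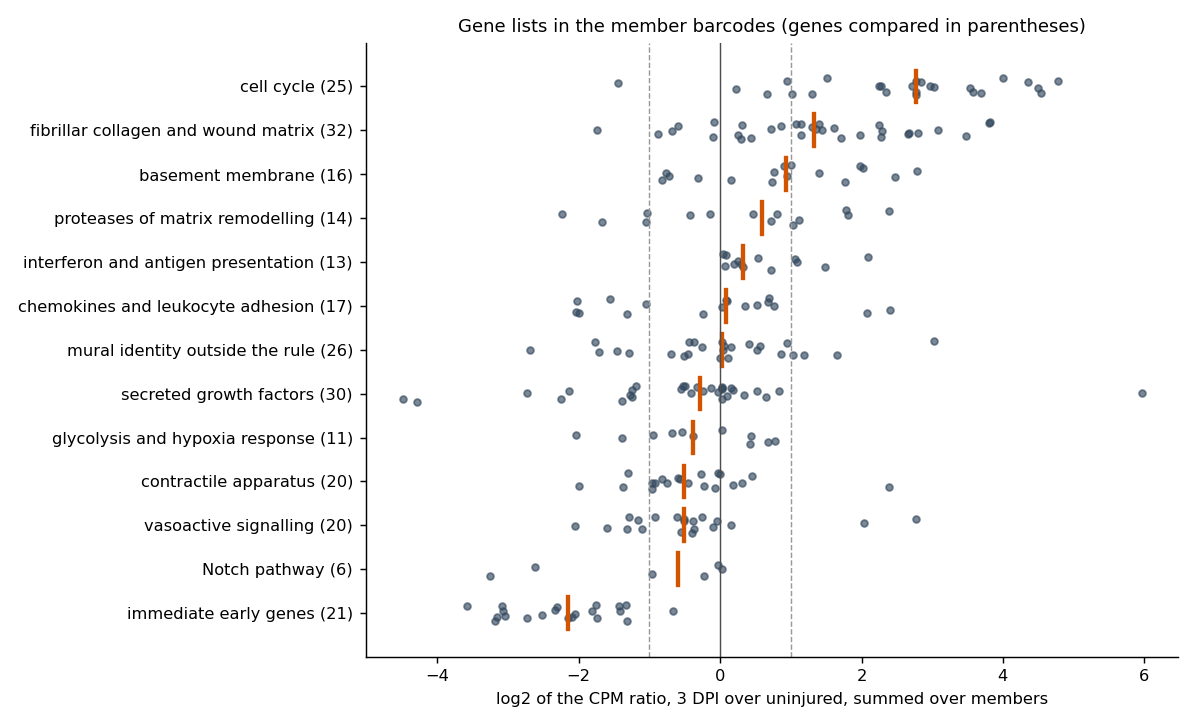
Each point is a gene with at least 20 UMIs over the members of both libraries, the horizontal axis is the log2 of its CPM ratio of 3 DPI over uninjured members, the vertical axis gives the gene list, and orange bars are list medians. The median of the cell cycle list lies at 2.77, of fibrillar and wound matrix at 1.32, of basement membrane at 0.93, of the contractile list at -0.51 and of immediate early genes at -2.15 (dashed lines mark 2-fold).

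Immediate early genes were the group furthest below the uninjured level. Of the 21 compared, 0 were at least 2-fold higher and 20 at least 2-fold lower, against 9.98% of all genes, with a median of 0.225-fold. UMIs of the list took a median of 4.33% of a member's UMIs in the uninjured nerve (0 to 14.6) and 0.568% at 3 DPI (0 to 5.58), and 1 of the 83 3 DPI members was above the uninjured median. Fos, a subunit of the AP-1 transcription factor, was at 1317 CPM at 3 DPI and 8748 CPM in the uninjured nerve (0.150-fold, 0.134 to 0.169), and its partner Jun at 1374 and 5714 CPM (0.240-fold, 0.214 to 0.270). Zfp36, which destabilises inflammatory mRNAs, was at 442 and 3634 CPM (0.121-fold, 0.0993 to 0.147). Btg2, an antiproliferative gene, was at 293 and 2624 CPM (0.112-fold, 0.0871 to 0.141), and Atf3, a stress-induced factor, at 160 and 1912 CPM (0.0836-fold, 0.0595 to 0.115). Nr4a1, an orphan nuclear receptor, was at 164 and 1483 CPM (0.110-fold, 0.0786 to 0.151). The heat shock gene Hspa1a was at 190 and 1610 CPM (0.118-fold, 0.0864 to 0.159). Klf6, at 636 and 1006 CPM (0.632-fold, 0.518 to 0.769), was the member of the list that was not 2-fold lower.

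The same list was low in the rest of the 3 DPI library. In all other filtered barcodes 15 of the 21 genes were at least 2-fold lower (median 0.348-fold), with Fos at 0.226-fold and Atf3 at 0.188-fold. Neonatal members had Fos at 471 CPM in the sorted and 3602 CPM in the bead-cleared preparation. The level of this gene thus also differed between the neonatal libraries, which differed in both preparation and age. The part of the preparation in the adult difference was not tested.

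Genes of the cell cycle were higher at 3 DPI. Of the 25 compared, 21 were at least 2-fold higher and 1 at least 2-fold lower, with a median of 6.81-fold, and 15 of all 35 list genes were at 0 in the uninjured members. In the other filtered barcodes 20 of the 25 were at least 2-fold higher (median 3.05-fold). With genes selected anew in each setting, the median was 1.92-fold after thinning and 3.75-fold without the deepest 5 and 9 members. Mki67, the Ki-67 proliferation antigen, was at 179 CPM in 15.7% of members at 3 DPI and had 0 UMIs in the uninjured members (at least 16.0-fold higher). Prc1, a spindle midzone protein, was at 259 CPM against 0 UMIs (at least 23.1-fold higher), and Top2a, topoisomerase II alpha, at 145 CPM against 0 UMIs (at least 12.9-fold higher), with 38.2% and 39.5% of their UMIs in 1 barcode. Replication genes were also higher: Pcna was at 247 and 52.2 CPM (4.74-fold, 2.63 to 9.15), and Tyms, thymidylate synthase, at 122 and 18.6 CPM (6.54-fold, 2.53 to 21.5). Ccnd1, cyclin D1, was at 373 and 130 CPM (2.86-fold, 1.93 to 4.33), and 1.84-fold among members with 0 UMIs of Cdh5, Lum, Cdh19 and Lyz2. Cdkn1a, the p21 inhibitor, was the lower gene, at 53.3 and 145 CPM (0.367-fold, 0.184 to 0.690), but 3.10-fold among low-range members.

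A UMI of Mki67 or Top2a was found in 14 of 83 members at 3 DPI (16.9%, 9.54 to 26.7) and in 0 of 175 uninjured members, which allows a share of up to 1.71% (3 counts of the total; the exact upper bound is 2.09%). After thinning to 500 UMIs the shares were 6 of 80 (7.50%, 2.80 to 15.6) and 0 of 169, which allows up to 1.78% (exact upper bound 2.16%). Uninjured endothelial barcodes had 0.932% (median 2018 UMIs) and uninjured Pdgfra-positive barcodes 0.216% (2434 UMIs). At 3 DPI the share was 18.8% in endothelial (2468 UMIs), 17.8% in Pdgfra-positive (4426 UMIs), 35.2% in Sox10-positive (3788 UMIs) and 5.50% in Ptprc-positive barcodes (1054 UMIs). Members thus lay near the endothelial and mesenchymal shares. Their interval overlapped those of both sets and also that of the Sox10-positive barcodes (22.7 to 49.4). Neonatal members had 12.9% and 11.6%.

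The 14 members with a proliferation UMI were deeper than the others at 3 DPI, with a median of 4186 UMIs (575 to 14091) against 2432 (259 to 9506). All 14 had Rgs5, at 11298 CPM against 11636 CPM in the other 69, and all 14 had Acta2, at 6416 against 7140 CPM. Myh11 was at 659 CPM in them and 1842 CPM in the others. Their median contractile share was 0.901% against 1.2%, and 6 of the 14 lay in the high range. UMIs of the cell cycle list made up 1.36% of their UMIs and 0.240% of those of the others. Rgs5 and Myh11 belong to the rule, and doublets were not removed.

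**Figure D4:**
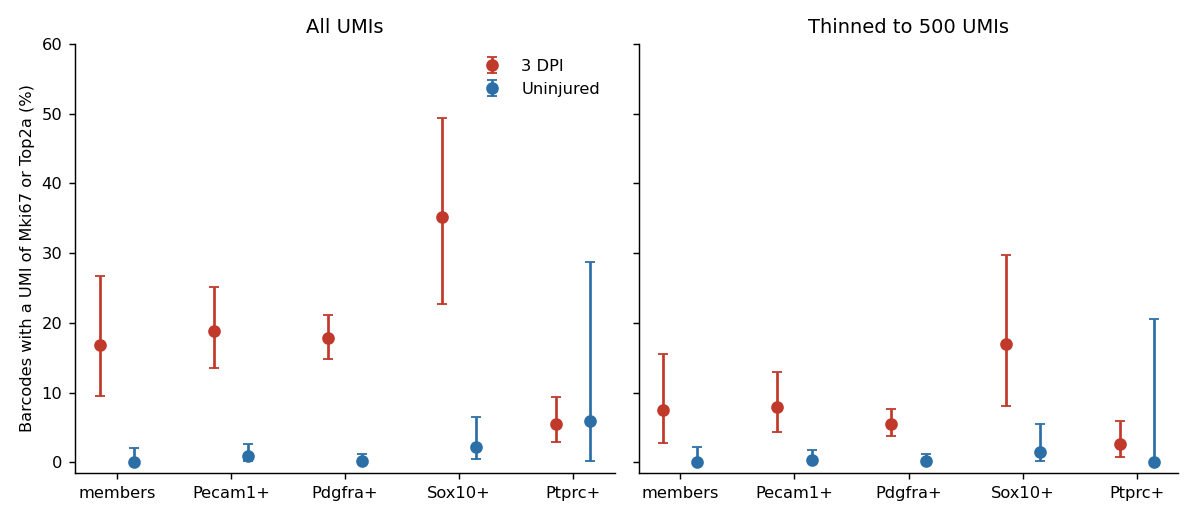
The vertical axis is the percentage of barcodes with a UMI of Mki67 or Top2a in members and in the comparison barcodes on the horizontal axis, with exact 95% intervals, before (left) and after (right) thinning to 500 UMIs. At 3 DPI members lie at 16.9% and 7.50%, and in the uninjured nerve at 0%.

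Secreted factors were mostly near or below the uninjured level, with a median of 0.820-fold. Of 30 genes, 1 was at least 2-fold higher, against 13.6% of all genes, and 10 at least 2-fold lower, against 9.98%. The same 30 genes had 3 higher and 8 lower in all other filtered barcodes (median 0.791-fold). Spp1, osteopontin, was at 232 CPM in 38.6% of members at 3 DPI and 3.73 CPM, 1 UMI, in the uninjured members (62.3-fold, 10.8 to 2500). Without the mesenchymal-rich members Spp1 had 57 UMIs at 3 DPI and 0 in the uninjured nerve (at least 19.3-fold higher). It was at 555 CPM in 3 DPI endothelial and 4664 CPM in 3 DPI Pdgfra-positive barcodes, so its level in members did not exceed that in other cells. Ntf3, neurotrophin-3, had 1 UMI at 3 DPI and 23 in 11.4% of uninjured members (0.0444-fold, 0.00108 to 0.273). Kitl, stem cell factor, was at 118 and 280 CPM (0.422-fold, 0.268 to 0.649), and Gas6, a ligand of TAM receptors, at 60.9 and 291 CPM (0.209-fold, 0.114 to 0.362; 0.330-fold without the mesenchymal-rich members).

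The intervals for Angpt1, Angpt2, Pdgfa, Il34 and Rarres2 included 1, and Angpt1 and Il34 were chosen after their values were seen. Angpt1 and Angpt2, the angiopoietins, had ratios of 1.11 (0.675 to 1.84) and 0.75 (0.474 to 1.18). Pdgfa was at 396 and 350 CPM (1.13-fold, 0.847 to 1.51). Il34, a ligand of the CSF1 receptor, was at 114 and 164 CPM (0.696-fold, 0.423 to 1.13), and Rarres2, chemerin, at 731 and 798 CPM (0.916-fold, 0.75 to 1.12). These intervals do not show equal levels: that of Angpt2 allows a ratio below 0.5.

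Among chemokine and leukocyte adhesion genes 2 of 17 were higher and 6 lower. Il6st, the gp130 signal transducer shared by IL-6 family receptors, was at 647 CPM in 54.2% of members at 3 DPI and 153 CPM in 20% (4.23-fold, 3.00 to 6.11), and 1.34-fold in the other filtered barcodes. Ccl2, which recruits monocytes, was at 198 and 37.3 CPM (5.31-fold, 2.67 to 11.7), at 242 CPM in 3 DPI endothelial barcodes and 11.8-fold in the other filtered barcodes. With 0 UMIs of Cdh5, Lum, Cdh19 and Lyz2 also required, Ccl2 was 1.40-fold (0.309 to 5.23) and Cxcl12 0.934-fold (0.626 to 1.37). Cxcl12 was at 369 and 764 CPM (0.483-fold, 0.376 to 0.618), Nfkbiz at 145 and 578 CPM (0.250-fold, 0.171 to 0.359) and Socs3, a feedback inhibitor of gp130 signalling, at 110 and 324 CPM (0.340-fold, 0.215 to 0.523).

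Of 13 interferon and antigen presentation genes compared, 4 were higher and 0 lower (median 1.25-fold). Isg15 was at 95.2 and 22.4 CPM (4.25-fold, 1.70 to 12.7). B2m, the light chain of MHC class I, was at 1576 and 958 CPM (1.65-fold, 1.41 to 1.93) and Ifitm3 at 2074 and 1435 CPM (1.45-fold, 1.27 to 1.65). Isg15, B2m and Ifitm3 were 1.16-, 0.965- and 0.927-fold in the other filtered barcodes. In the glycolysis and hypoxia list 0 of 11 were higher and 2 lower (median 0.770-fold), with Ldha at 331 and 194 CPM (1.71-fold, 1.2 to 2.46), Pkm at 335 and 209 CPM (1.60-fold, 1.14 to 2.29) and Aldoa, a glycolytic enzyme, at 103 and 203 UMIs (0.518-fold, 0.405 to 0.660). The same 11 genes had a median of 1.67-fold in the other filtered barcodes, with 4 higher.

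Some genes differed in members and in the opposite direction, or by far less, in the pool of other filtered barcodes, called elsewhere below. They were ranked by the difference between the 2 log2 ratios, with no test of it. Fabp4, a fatty acid binding protein of capillary endothelium, was at 3726 CPM in 69.9% of members at 3 DPI and 909 CPM in 47.4% of uninjured members (4.10-fold, 3.56 to 4.73), whereas in all other filtered barcodes it was 0.425-fold. Endothelial barcodes had Fabp4 at 8757 and 9614 CPM, and Pdgfra-positive, Sox10-positive and Ptprc-positive barcodes at 112.5 to 272 CPM at 3 DPI, well below the members. Flt1, a VEGF receptor of endothelium, was at 156 and 85.7 CPM in members (1.82-fold, 1.07 to 3.18). Of the 6 endothelial markers compared, 2 were at least 2-fold higher in members, against 13.6% of all genes, and 0 lower. A UMI of any of the 12 was found in 60.2% of 3 DPI and 40.6% of uninjured members. Cdh5 was found in 6.02% and 3.43%, and Cldn5 in 1.21% and 2.29%. The part of endothelial RNA in the Fabp4 ratio was not tested. Fabp4 was 4.14-fold in the members that also had 0 UMIs of Cdh5, Lum, Cdh19 and Lyz2. Of these genes only Cdh5 is endothelial, and few members had it, so this value does not bear on endothelial RNA.

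H2-M9, an MHC class Ib gene, was at 346 and 78.3 CPM (4.42-fold, 2.73 to 7.49), and its CPM in 3 DPI members was 191 times that in the other filtered barcodes. Art3, an ADP-ribosyltransferase of the pericyte identity list, was at 141 and 44.7 CPM (3.15-fold, 1.61 to 6.63), and 0.154-fold elsewhere. Fxyd6, a regulator of the sodium pump, had 23 UMIs in 13.3% of 3 DPI members and 1 UMI in the uninjured members (23.5-fold, 3.81 to 968). Without the mesenchymal-rich members these were 15 and 0 UMIs (at least 5.08-fold higher), and among members that also had 0 UMIs of Cdh5, Lum, Cdh19 and Lyz2 they were 1 and 1. On the lower side Rcan2, a calcineurin inhibitor, was at 38.1 and 600 CPM (0.0634-fold, 0.0299 to 0.120), and 0.691-fold elsewhere. Pi15, a secreted protease inhibitor, was at 30.4 and 276 CPM (0.110-fold, 0.0460 to 0.229), and Slc4a3, an anion exchanger, at 34.2 and 198 CPM (0.173-fold, 0.0752 to 0.355); they were 2.49- and 1.24-fold elsewhere. Rasd1, a Ras-related protein induced by glucocorticoid, was at 38.1 and 932 CPM (0.0408-fold, 0.0193 to 0.0764) but also low elsewhere (0.159-fold), as was Ppp1r15a, the stress-response phosphatase subunit GADD34 (0.0687-fold in members, 0.206-fold elsewhere).

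**Figure D5:**
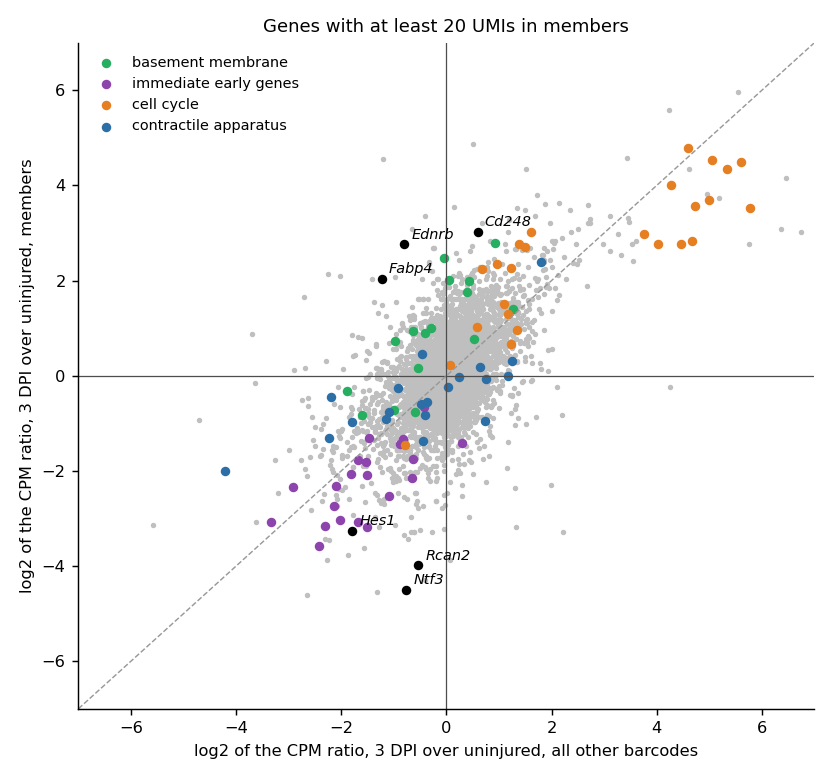
Each point is a gene with at least 20 UMIs in members. The vertical axis is the log2 CPM ratio of 3 DPI over uninjured in members, the horizontal axis the same ratio in all other filtered barcodes, and the dashed line marks equal ratios. Fabp4 (4.10-fold against 0.425-fold) and Ednrb (6.81-fold against 0.572-fold) lie in the upper left, most basement membrane genes lie above the dashed line, and immediate early genes are low on both axes.

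Set beside the neonatal members, which come from other preparations and ages, Rgs5 at 3 DPI (11540 CPM) was above the 8285 and 6326 CPM of the sorted and bead-cleared neonatal members, and Myh11 (1507 CPM) lay between their 810 and 1948 CPM. Col4a1 at 3 DPI (1907 CPM) was closer to the neonatal 2207 and 2216 CPM than to the uninjured 563 CPM, and Hes1 at 3 DPI (202 CPM) was below the neonatal 397 and 372 CPM. These are values of single libraries, given without a test.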

How the data were processed

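Each adult library was 1 sample, and its cells were not treated as replicates. Reads were aligned to mm10 following the Drop-seq Alignment Cookbook by the authors, who deposited raw counts, the digital gene expression matrix of UMIs per gene and barcode, without normalization. No source used here gives the strand setting or the annotation. The members and gene lists were chosen with earlier results of these data known.

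From the counts, barcodes with at least 200 genes and at most 10% mitochondrial UMIs were kept, and members were taken by the rule in the text. UMIs were summed over members and divided by their total (CPM). Shares carry exact Clopper-Pearson intervals, and ratios the exact conditional binomial interval of 2 counts, all at 95%. Genes needed 20 UMIs over both libraries, and at least 2-fold was a description of size. A gene at 0 was set to 3 UMIs for a bound. Comparison barcodes had 1 of Pecam1, Pdgfra, Sox10 or Ptprc, 0 UMIs of the other 3 and under 4 marker UMIs. The genes named were those of the rule, the 8 most abundant and the most extreme of each list, the 10 most extreme by ratio and by difference from other barcodes in each direction, the 20 most specific to members and the 8 most extreme by contractile range; the text gives a part of these, and other list members it names were chosen after their values were seen. Doublet scores came from scrublet in scanpy 1.11.5, run in Python 3.11.15 with scipy 1.17.1. The ratio and its interval were tested on simulated data. Promoters are those of RefSeq on GRCm38.p6. Depth was 8123103 UMIs at 3 DPI and 4513814 in the uninjured library. Alternatives are in the closing section.
Some genes are not reported here.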

Additional observations from a re-analysis of the deposited data

How the results depend on the processing

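No paired analysis was possible because each condition is 1 library and the labels give no replicate numbers. No group had the samples for leaving out a replicate.

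With 0 UMIs of Cdh5, Lum, Cdh19 and Lyz2 also required, members were 1.49% and 6.48% of barcodes, 264 genes were at least 2-fold higher, and the Notch and cell cycle medians were 0.301- and 1.63-fold. At least 8 marker UMIs gave 7.40% uninjured members. The high contractile range held 25.3% (3 DPI) and 54.3% (uninjured) from 2%, and 79.5% and 88.0% from 0.5%. Thinning to 500 UMIs gave 156 higher and 185 lower genes, 7.50% of 3 DPI members with a proliferation UMI, and Notch and cell cycle medians of 0.392- and 1.92-fold. A minimum of 50 UMIs gave 243 higher and 200 lower genes, with medians of 0.163- (Notch) and 2.65-fold (cell cycle), and a minimum of 5 UMIs gave 1915 and 1277 genes and 1.0-fold (Notch). Without the deepest 5% of members the Notch, fibrillar and cell cycle medians were 0.292-, 4.44- and 3.75-fold, and with every member weighed the same the cell cycle median was 4.46-fold. With genes selected anew, low-range members alone gave 312 higher and 204 lower genes and medians of 1.15- (contractile), 1.58- (fibrillar) and 4.47-fold (cell cycle), and high-range members alone 0.310- (Notch), 3.83- (fibrillar) and 3.97-fold (cell cycle). Fewer genes or members entered most of these settings, and the cause of each difference was not tested otherwise. Of the named genes that were at least 2-fold higher or lower, Actg2 (0.861-fold), Col1a1 (0.933-fold), Col1a2 (0.882-fold) and Cdkn1a (3.10-fold) turned direction in the low range. With the 4 further genes at 0, Myh11 (0.522-fold), Lmod1 (0.573-fold), S1pr3, Rgs4, Gucy1a3, Adra2a, Lox, Ccl2, Cxcl12 and Ccnd1 no longer passed 2-fold, and Ntf3, at 0 and 13 UMIs, gave no bound past it. Cxcl12, already near 2-fold, also lost it in most of the other settings that changed the members. Lama4, also near 2-fold, lost it in several settings, with 1.34-fold when every member was weighed the same. Kitl was 0.572-fold with at least 8 marker UMIs and 0.525-fold without the mesenchymal-rich members. Thinned to 500 UMIs, Pdgfrb was 0.960-fold, and Lmod1, Art3, Ppp1r12a, Ntf3, Gas6, Cxcl12 and Ccnd1 did not pass 2-fold. Leaving out the members rich in mesenchymal markers, an alternative chosen after seeing the data, left 627 higher and 455 lower genes. Cd248 was 3.64-fold with the 4 further genes at 0. Of 192 values of shares, counts and list medians under the alternatives, 158 moved by less than the counting interval or, for counts and medians, by less than 1.5 times; the other 34 are given above.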
